A study of Rattus norvegicus with 12 samples.

Results

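The genes described here encode the core of the presynaptic release machinery, the proteins that prime synaptic vesicles and fuse them with the membrane of the nerve terminal. They are the 8 genes *Snap25*, *Stx1a*, *Vamp1*, *Vamp2*, *Syt1*, *Syt2*, *Unc13a* and *Rims1*, found by symbol in a table of 37209 genes, and all 8 were among the 20944 genes with enough counts to be tested. They were measured by poly-A RNA-Seq in punches of the central nucleus of the amygdala (CeA) from 12 male wild type Sprague Dawley rats aged 14 to 16 weeks, with 1 library per rat. The 6 rats of the CIE group (chronic intermittent ethanol) had breathed ethanol vapor in daily cycles over several weeks and were killed at the end of the last exposure. The 6 rats of the Control group were handled in the same way but received air. Rats are numbered 1 to 6 (CIE) and 7 to 12 (Control), and the numbers do not pair rats. Each library comes from 1 hemisphere of 1 rat. The rats were group housed, and neither cage nor batch was used here. Libraries held between 39082548 (Control rat 11) and 95647601 (Control rat 8) counts.

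Release starts with a zipper of SNARE proteins. *Vamp1* and *Vamp2* encode the vesicle SNAREs (synaptobrevins), and *Stx1a* (syntaxin) and *Snap25* encode their partners on the plasma membrane. *Syt1* and *Syt2* encode synaptotagmins, the calcium sensors that trigger fast fusion, and *Unc13a* and *Rims1* encode active zone proteins that prime the vesicle and hold it near calcium channels. Most CeA neurons are GABAergic, and GABA release in the CeA is a well studied site of ethanol action. In punched tissue, fewer cells of a type and less RNA per cell cannot be told apart.

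Promoter sequences in RefSeq were found for 7 of the 8 genes, all but *Snap25*. Shown here are the 250 bases before the annotated start of *Vamp1* and *Vamp2*, since *Vamp1* alone among the 8 passed the unadjusted threshold between the groups, and of *Unc13a* and *Rims1*, the pair with the highest correlation between rats. Each runs 5′ to 3′ in the direction of the gene. Capitals mark the GC box (GGGCGG), the CCAAT box (CCAAT) and the cyclic AMP response element (CRE, TGACGTCA), each read on both strands.
Vamp1 (GRCr8, chr4:159698644-159698893, plus strand): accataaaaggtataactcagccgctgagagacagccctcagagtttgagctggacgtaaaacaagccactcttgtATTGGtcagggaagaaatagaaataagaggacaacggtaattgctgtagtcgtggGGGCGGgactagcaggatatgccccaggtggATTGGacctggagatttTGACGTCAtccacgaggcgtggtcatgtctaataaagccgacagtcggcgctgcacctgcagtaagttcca
Vamp2 (GRCr8, chr10:54292539-54292788, plus strand): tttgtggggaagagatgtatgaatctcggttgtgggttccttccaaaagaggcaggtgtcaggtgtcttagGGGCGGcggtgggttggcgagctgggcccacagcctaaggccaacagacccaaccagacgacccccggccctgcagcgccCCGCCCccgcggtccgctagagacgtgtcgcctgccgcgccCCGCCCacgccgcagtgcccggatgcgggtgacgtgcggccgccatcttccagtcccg
Unc13a (GRCr8, chr16:18415787-18416036, minus strand): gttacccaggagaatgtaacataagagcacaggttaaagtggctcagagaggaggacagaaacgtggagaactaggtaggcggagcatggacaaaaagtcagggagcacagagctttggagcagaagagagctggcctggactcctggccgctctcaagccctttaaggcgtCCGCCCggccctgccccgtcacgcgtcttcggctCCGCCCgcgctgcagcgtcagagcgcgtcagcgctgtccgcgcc
Rims1 (GRCr8, chr9:32692773-32693022, minus strand): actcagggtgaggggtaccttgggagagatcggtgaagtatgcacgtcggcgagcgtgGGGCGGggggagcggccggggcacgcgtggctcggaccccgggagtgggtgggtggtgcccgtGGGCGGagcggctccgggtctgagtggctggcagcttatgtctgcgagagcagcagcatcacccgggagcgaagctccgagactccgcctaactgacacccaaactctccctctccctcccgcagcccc

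The *Vamp1* window held 1 GC box, 2 CCAAT boxes and 1 CRE, at 50.4% G and C with 11 CpG dinucleotides. The *Vamp2* window held 3 GC boxes and no CCAAT box or CRE, at 68.0% G and C with 24 CpG. *Unc13a* and *Rims1* each held 2 GC boxes and neither of the other motifs, at 61.2% and 69.2% G and C. Of the other windows, *Stx1a* held 4 GC boxes and 1 CCAAT box that overlaps one of them by 1 base, *Syt1* held 3 GC boxes, and *Syt2* held none of these motifs. TATAAA and the E-box CACGTG, also searched on both strands, were absent from all 7 windows. Over all 33469 promoter windows of this length, 30.5% held a GC box, 34.0% a CCAAT box, 1.59% the CRE, 12.9% TATAAA and 5.59% CACGTG, and the median was 51.2% G and C with 5 CpG. These matches describe letters and are not measured binding sites.

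None of the 8 genes passed 5% FDR between the CIE and Control groups, and in all 8 the values of the groups overlapped. *Vamp1* alone had an unadjusted (nominal) p below 0.05, with a lower mean in the CIE group. Over all genes tested, 0.363% passed 5% FDR, 8.31% had an unadjusted p below 0.05, 0.893% showed no overlap of the groups, and 4.31% had such a p with a lower CIE mean. The 1 of 8 at the unadjusted threshold is near this background. The largest difference of the 8 was that of *Vamp1*, to 0.839 of the Control level, and the log2 fold changes ran from -0.25 to 0.15. For 7 of the 8 genes the 95% interval lay within 0.5 on the log2 scale in either direction. *Syt2* was the exception. Levels are given as CPM, counts scaled to a common library size, with TMM normalization. CPM does not account for transcript length, and levels are therefore compared between groups and rats but not between genes.

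**Figure D1:**
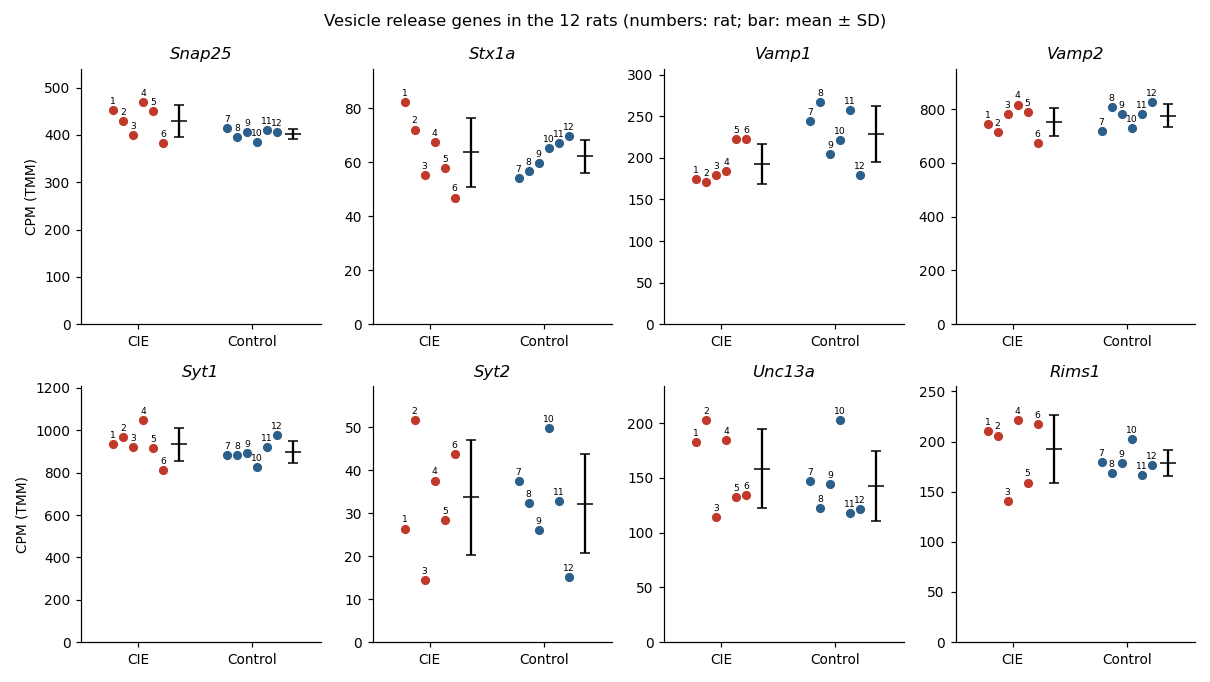
CPM of the 8 genes in each rat (y axis, from 0) by group (x axis), with 1 numbered point per rat and the mean ± SD of 6 rats beside each group. The groups overlap in every panel, *Vamp1* shows the lowest CIE mean relative to Control (192 against 229 CPM), and *Syt2* shows the widest spread (14.4 to 51.7 CPM).

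Of the SNARE genes, *Snap25* had a tight range. The level ranged from 382 to 470 CPM in CIE rats (median 439) and from 385 to 414 CPM in Control rats (median 406). In 4 of 6 CIE rats it was above every Control rat, whereas CIE rat 6 was below all of them. The CIE mean was 430 ± 33.7 CPM and the Control mean 403 ± 10.6 CPM (both SD, n = 6), a log2 difference of 0.10 (SE 0.06, 95% interval -0.03 to 0.22, unadjusted p 0.134, FDR 0.732 by edgeR). Without CIE rat 6 the log2 fold change was 0.13 with an unadjusted p of 0.0348.

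*Stx1a* ranged from 46.9 to 82.3 CPM in CIE rats (median 62.6) and from 54.3 to 69.7 CPM in Control rats (median 62.5). CIE rats 1 and 6 had the highest and the lowest value of all 12 rats, so that the Control range lies inside the CIE range. Between the groups the log2 fold change was 0.03 (SE 0.12, 95% interval -0.22 to 0.29), and its sign turned when CIE rat 1, CIE rat 2 or Control rat 7 was left out.

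*Vamp1* ranged from 170 to 223 CPM in CIE rats (median 182) and from 179 to 267 CPM in Control rats (median 233). All 6 CIE rats were below the Control median, 3 of them below every Control rat, and Control rat 12, at 179 CPM, lay among the CIE rats. The CIE mean was 192 ± 24.1 CPM and the Control mean 229 ± 33.5 CPM (both SD, n = 6). The log2 fold change was -0.25 (SE 0.11, 95% interval -0.48 to -0.03, unadjusted p 0.0318 at rank 1226 of 20944 genes, FDR 0.544 by edgeR). The 2-sided exact permutation test of the group means gave p = 0.0649. With 1 rat left out in turn the log2 fold change stayed between -0.31 and -0.19, and the unadjusted p rose above 0.05 in 7 of 12 fits, to as high as 0.0969 without Control rat 8.

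*Vamp2* ranged from 675 to 817 CPM in CIE rats (median 762) and from 718 to 827 CPM in Control rats (median 782). Its log2 fold change was -0.04 (SE 0.06, 95% interval -0.17 to 0.09), so that a difference beyond 0.886-fold or 1.07-fold lies outside the interval.

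Of the calcium sensors, *Syt1* ranged from 812 to 1049 CPM in CIE rats (median 928) and from 827 to 979 CPM in Control rats (median 889). In 5 of 6 CIE rats it was above the Control median, and only CIE rat 4 was above every Control rat. The log2 fold change was 0.06 (SE 0.07, 95% interval -0.08 to 0.20). In the RefSeq annotation of the assembly GRCr8, the *Syt1* locus holds a second gene that the count table also lists, LOC102547595, and reads of overlapping genes can be divided between them.

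*Syt2*, the sensor known from fast-spiking neurons and from hindbrain terminals, varied most. The level ranged from 14.4 to 51.7 CPM in CIE rats (median 33.0) and from 15.2 to 49.8 CPM in Control rats (median 32.5). Both groups thus spanned nearly the same range, and the rats at the low end were CIE rat 3 and Control rat 12. Its log2 fold change was 0.07 (SE 0.29), and the 95% interval ran from -0.56 to 0.69, or 0.679-fold to 1.61-fold. Changes in either direction within these bounds are compatible with the values of 6 rats a group.

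Of the priming genes, *Unc13a* ranged from 114 to 203 CPM in CIE rats (median 159) and from 118 to 203 CPM in Control rats (median 134). CIE rats 1, 2 and 4 (183, 203 and 184 CPM) and Control rat 10 (203 CPM) stood above the other 8 rats, which lay between 114 and 147 CPM. For *Unc13a* the log2 fold change was 0.15 (SE 0.16, 95% interval -0.19 to 0.50). It was 0.07 without CIE rat 2 and 0.28 (unadjusted p 0.0571) without Control rat 10.

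*Rims1* ranged from 141 to 222 CPM in CIE rats (median 208) and from 167 to 203 CPM in Control rats (median 178). In 4 of 6 CIE rats it was above every Control rat and in the other 2 it was below all of them. For *Rims1* the log2 fold change was 0.11 (SE 0.11, 95% interval -0.12 to 0.34). Without CIE rat 3 it was 0.18 with an unadjusted p of 0.0479 and an FDR of 0.374.

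The spread between rats differed widely among the 8 genes. As the SD over the mean, it was 7.83% in CIE rats and 2.63% in Control rats for *Snap25*, 6.99% and 5.51% for *Vamp2*, and 8.28% and 5.61% for *Syt1*. For *Syt2* it was 39.7% and 35.8%, and for *Unc13a* 22.7% and 22.5%. The median over 11320 genes with a mean of at least 10 CPM was 11.3% in CIE rats and 9.10% in Control rats. *Snap25*, *Vamp2* and *Syt1* thus lay below this median in both groups. *Syt2*, *Unc13a*, *Vamp1* (12.5% and 14.6%) and *Stx1a* (20.2% and 9.84%) lay above it in both, and *Rims1* (17.6% and 7.21%) lay above it in CIE rats alone. Counting error is small beside these values. The lowest count of any member was 931, for *Syt2* in CIE rat 3, where the Poisson error alone is 3.28%.

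The other genes of the release pathway were taken from a list of 82 genes chosen by function, of which 80 were tested. None passed 5% FDR, 4 (5%) had an unadjusted p below 0.05, against 8.31% of all genes, and 43 had positive and 37 negative log2 fold changes. Their median log2 fold change was 0.01, against 0.00 over all genes. In 78 of the 80 the difference was smaller than 0.5 on the log2 scale, and in 66 the whole 95% interval lay within that limit. The exceptions were *Cplx3* and *Sv2b*.

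**Figure D2:**
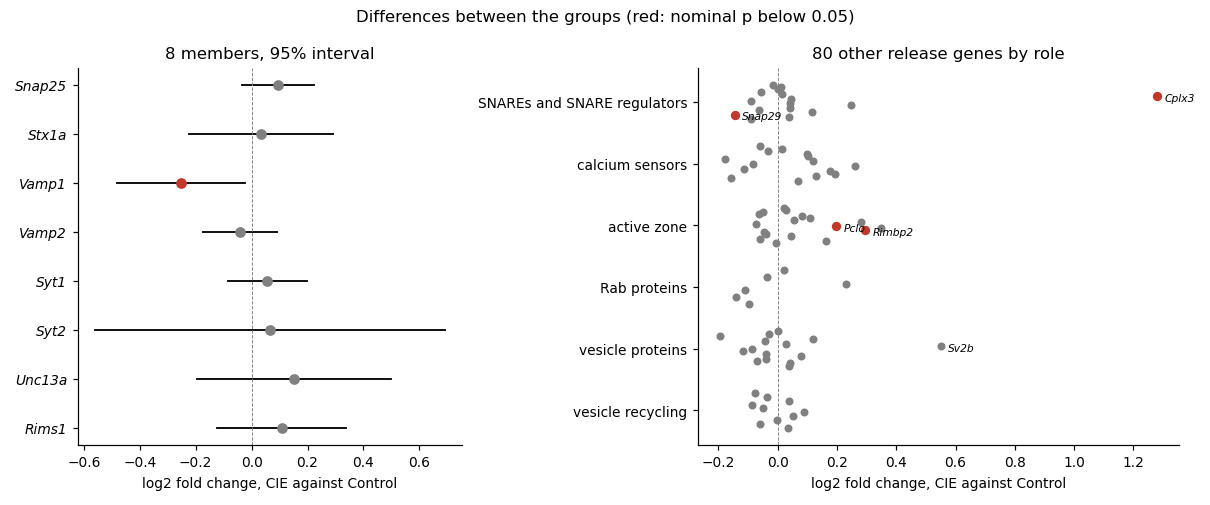
Left, log2 fold change (x axis) of the 8 genes (y axis) with the 95% interval. Right, log2 fold changes of the 80 other tested release genes by role (y axis), with 1 point per gene, red where the unadjusted p is below 0.05. Points crowd around 0 in each role, while *Cplx3* (1.28) and *Sv2b* (0.55) stand apart on the right.

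Among the 16 SNAREs and SNARE regulators, *Snap29* was lower and *Cplx3* higher at an unadjusted p below 0.05. *Snap29*, a widely expressed relative of *Snap25*, ranged from 32.4 to 37.4 CPM in CIE rats (median 34.8) and from 35.0 to 41.2 CPM in Control rats (median 39.5), a log2 difference of -0.15 (SE 0.06, unadjusted p 0.0285, FDR 0.526 by edgeR). All 6 CIE rats were below the Control median, and the unadjusted p rose above 0.05 in 6 of 12 fits with 1 rat left out, to as high as 0.0685 without Control rat 9. *Cplx3* encodes a complexin, a clamp and activator of the SNARE complex, and was scarce. It was at 0.691 to 1.48 CPM in 5 CIE rats and 7.21 CPM in CIE rat 2, and at 0.533 to 1.28 CPM in Control rats. The log2 fold change was 1.28 (unadjusted p 0.0287) with all rats and 0.36 (unadjusted p 0.226) without CIE rat 2. The other 14 genes of this role, among them the SNARE-recycling ATPase *Nsf*, did not pass the unadjusted threshold.

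Among the 18 other active zone genes, 2 were higher at an unadjusted p below 0.05. *Rimbp2*, whose product links Rim proteins to calcium channels, ranged from 117 to 183 CPM in CIE rats (median 130) and from 98.2 to 128 CPM in Control rats (median 112), with all 6 CIE rats above the Control median (log2 fold change 0.30, SE 0.11, unadjusted p 0.0201, FDR 0.475 by edgeR). *Pclo*, the gene of the large scaffold Piccolo, ranged from 206 to 309 CPM in CIE rats (median 268) and from 214 to 251 CPM in Control rats (median 228), with 4 CIE rats above every Control rat (log2 fold change 0.20, SE 0.09, unadjusted p 0.0429, FDR 0.582). Without CIE rat 1, the rat with the highest value in both genes, the log2 fold changes were 0.20 for *Rimbp2* (unadjusted p 0.0524) and 0.15 for *Pclo* (unadjusted p 0.112). With 1 rat left out in turn, the unadjusted p rose above 0.05 in 1 of 12 fits for *Rimbp2* and in 9 of 12 for *Pclo*. The log2 fold changes of the other 16, which include the scaffold *Bsn* and the relatives *Unc13b* and *Rims2*, did not pass.

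In the other 4 roles no gene had an unadjusted p below 0.05 by edgeR. The smallest unadjusted p values were those of *Syt13* (-0.18, unadjusted p 0.124) and *Syt11* (-0.08, unadjusted p 0.133) among 15 other synaptotagmin-type genes, and of *Rab3d* (0.23, unadjusted p 0.218) and *Rab3a* (-0.10, unadjusted p 0.241) among 6 Rab genes. Of 15 vesicle proteins they were those of *Sv2b* (0.55, SE 0.27, unadjusted p 0.0591) and *Sncb* (-0.19, unadjusted p 0.157), and of 10 recycling genes those of *Ap2m1* (-0.09, unadjusted p 0.225) and *Sh3gl2* (0.09, unadjusted p 0.231). *Sv2b*, a vesicle glycoprotein gene known from glutamatergic neurons, ranged from 80.9 to 289 CPM in CIE rats (median 145) and from 90.6 to 140 CPM in Control rats (median 99.1). CIE rats 1, 2 and 4 were above every Control rat. The log2 fold change of *Sv2b* was 0.30 (unadjusted p 0.206) without CIE rat 1 and 0.69 (unadjusted p 0.0135) without CIE rat 6, and the unadjusted p fell below 0.05 in 5 of 12 such fits.

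Ratios of related genes within a library need no normalization between libraries, and 5 pairs were compared. *Vamp1* stood at 0.226 to 0.330 counts per *Vamp2* count in the CIE group (median 0.236) and at 0.217 to 0.340 in Control rats (median 0.316). Control rat 12 had the lowest ratio of all, and CIE rats 5 and 6 lay among the Control rats. The log2 ratio was lower in the CIE group by a mean difference of -0.21 (2-sided exact permutation test, p = 0.156, Benjamini-Hochberg adjusted over 5 pairs 0.779), and the difference was -0.29 with an exact permutation p of 0.0455 without Control rat 12.

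*Syt2* stood at 0.0156 to 0.0540 counts per *Syt1* count in CIE rats and at 0.0155 to 0.0602 in Control rats, a difference of -0.01 in the log2 ratio (exact permutation p = 0.963). The differences of the other 3 pairs were 0.15 for *Unc13a* to *Unc13b*, 0.04 for *Rims1* to *Rims2* and 0.06 for *Snap25* to *Snap23*, with exact permutation p values of 0.563 to 0.665 and an adjusted value of 0.831 each. In none of the 5 pairs did the groups separate.

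**Figure D3:**
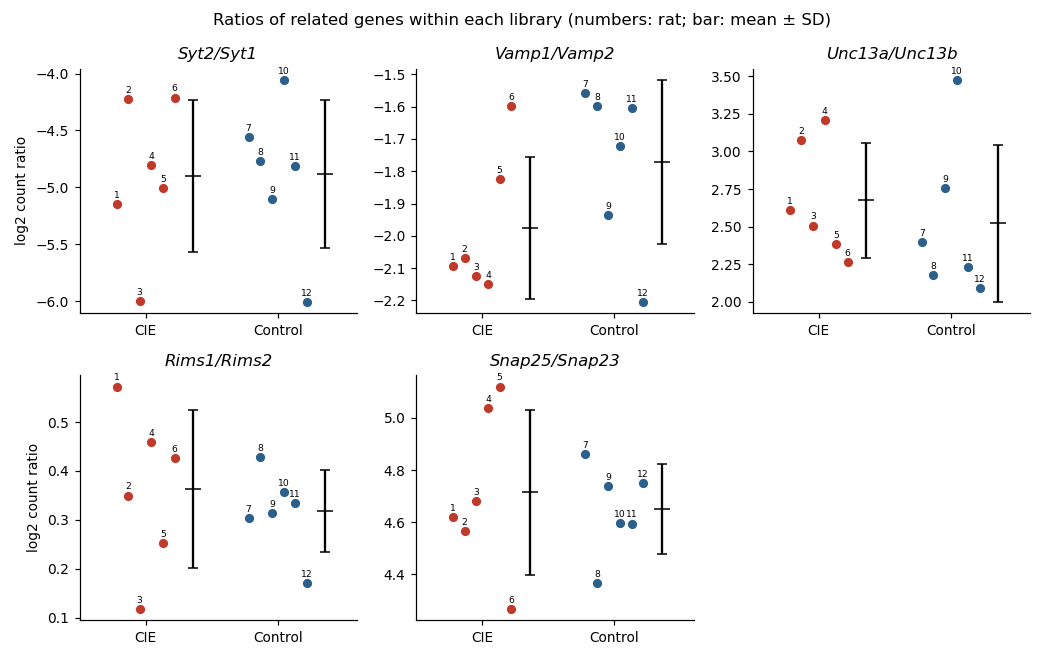
Log2 ratio of the counts of 2 related genes in each library (y axis, not starting at 0) by group (x axis), with 1 numbered point per rat and the mean ± SD of 6 rats. The groups overlap in every panel, and for *Vamp1*/*Vamp2* CIE rats 1 to 4 and Control rat 12 lie below the other rats.

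The 8 genes did not all vary in the same direction from rat to rat, though some pairs had a high r. With the group means removed, Pearson's r of log2 CPM over the 12 rats was positive in 15 of 28 pairs, with a median of 0.10. It was above 0.5 in 9 pairs and below -0.5 in 3. The highest value was that of *Unc13a* and *Rims1*, at r = 0.75 (permutation test, p = 0.00422, adjusted over 28 pairs 0.118) and Spearman's rho = 0.74 (permutation test, p = 0.0118, adjusted 0.184). It was 0.76 without CIE rat 2 and Control rat 10, 0.75 within the CIE group (exact permutation p = 0.0833) and 0.96 among the Control rats alone (exact permutation p = 0.00694). *Snap25* and *Syt1* had r = 0.75 (permutation test, p = 0.00920, adjusted 0.129) and rho = 0.57 (permutation test, p = 0.0775, adjusted 0.304). This value rested on CIE rats 4 and 6, without which r was 0.31, and it was 0.81 within the CIE group (exact permutation p = 0.0361) and 0.63 among the Control rats alone (exact permutation p = 0.190). *Stx1a* and *Vamp1* ran in opposite directions, at r = -0.60 (permutation test, p = 0.0343, adjusted 0.160) and rho = -0.64 (permutation test, p = 0.0351, adjusted 0.246). It was -0.51 without CIE rats 1 and 6, -0.75 within the CIE group (exact permutation p = 0.103) and -0.53 among the Control rats alone (exact permutation p = 0.269). The lowest r was that of *Vamp2* and *Syt2*, at -0.61 (permutation test, adjusted p 0.200), and it was -0.79 among the Control rats alone. For *Vamp2* and *Syt1* r was 0.72 (permutation test, p = 0.0166, adjusted 0.155). An unadjusted p value below 0.05 was found for 6 pairs, and 0 pairs passed after adjustment over the 28.

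**Figure D4:**
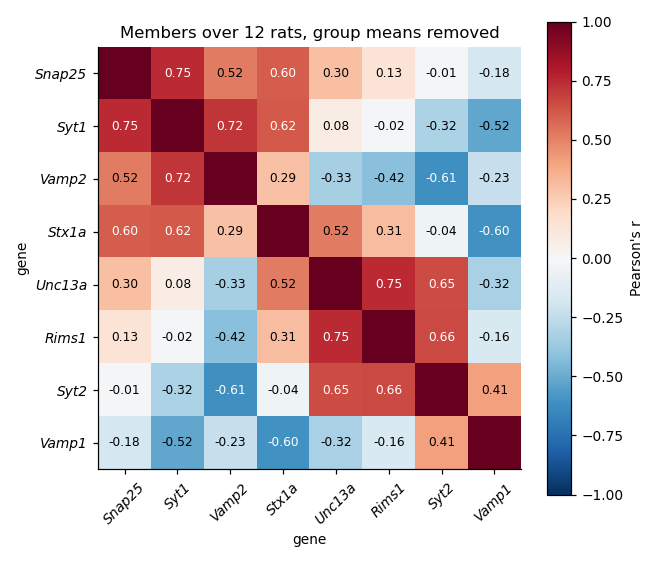
Pearson's r of log2 CPM between the 8 genes (both axes) over 12 rats after removal of the group means, from -1 (blue) to 1 (red). The order of the genes was chosen and not computed. *Snap25*, *Syt1*, *Vamp2* and *Stx1a* are positive with each other (0.29 to 0.75), as are *Unc13a*, *Rims1* and *Syt2* (0.65 to 0.75). *Stx1a* is also positive with *Unc13a* (0.52), and *Vamp1* is negative with all but *Syt2*. For *Snap25* and *Vamp2*, r was -0.04 without CIE rats 4 and 6 and 0.05 among the Control rats alone. For *Snap25* and *Stx1a* it was -0.17 among the Control rats alone.

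By the same measure, the genes whose pattern over the 12 rats was most like that of each member were sought among 13295 genes with a mean of at least 5 CPM, and the values describe a search for the highest. For *Unc13a* they were *Pcnxl2* (r = 0.98), *Cntn3* (0.97) and *Zdhhc18* (0.97), for *Rims1* they were *Sf1* (0.98), *Fam120a* (0.98) and *Wiz* (0.97), and for *Syt2* they were *Fam126a* (0.96), *Rbms1* (0.95) and *Pc* (0.95). For *Stx1a* they were *Mtx1* (0.96), *Sv2b* (0.93) and *Sstr4* (0.92), for *Vamp1* they were *Pnkd* (0.92), *Emilin2* (0.92) and *Isoc1* (0.92), and for *Snap25* they were LOC103693616 (0.93), RGD1560408 (0.93) and *Ptprn2* (0.92). For *Syt1* they were LOC100910046 (0.86), *Aste1* (0.86) and the release gene *Napg* (0.86), and for *Vamp2* they were LOC302192 (0.89), LOC100910983 (0.85) and LOC103693788 (0.84). Of these 24 genes, 2 (*Sv2b* and *Napg*) belong to the release list.

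Levels of cell type markers differed between the punches, and some release genes were highest in the same rats as some of these markers. Whether the punches held different tissue was not tested. The listed CeA markers were present in every rat, with *Gad1* at 535 to 680 CPM and *Prkcd* at 22.7 to 46.3 CPM. *Gad1* is a gene of GABAergic neurons and does not by itself show CeA tissue. It was at 603 CPM in CIE rat 2 and 671 CPM in Control rat 10. The striatal marker sums of these rats, 3719 and 4128 CPM, were the highest of their groups. The summed level of 12 neuronal markers was 5174 to 5834 CPM in CIE rats and 5364 to 6052 CPM in Control rats, and 1 of the 12 had an unadjusted p below 0.05. Markers of glutamatergic neurons of the cortex and basolateral amygdala differed far more, since their sum was 182 to 653 CPM in CIE rats and 154 to 501 CPM in Control rats. Of the 10 markers *Neurod1* was at 0 in every rat and *Emx1* in at least 1, 9 were tested and had positive log2 fold changes (median 1.62), and 2 had an unadjusted p below 0.05. Their defining marker *Slc17a7*, the vesicular glutamate transporter, was at 348, 161 and 223 CPM in CIE rats 1, 2 and 4 and at 130 CPM in Control rat 10, against 3.66 to 43.3 CPM in the other 8. Of the lists not described further, endothelial markers were lower at an unadjusted p below 0.05 in 5 of 9 tested, 1 of them at 5% FDR. Lower at that threshold were 2 of 11 CeA markers (median log2 fold change of the list -0.14) and 2 of 10 astrocyte markers. Over all genes the share that was lower was 4.31%. Of the astrocyte markers, 1 more was higher at that threshold. Of the 8 release genes *Syt2* had the highest r with the endothelial sum, at 0.69 (permutation test, p = 0.0222, adjusted over 80 relations 0.148) and rho = 0.69 (permutation test, p = 0.0268, adjusted 0.244). It was 0.75 without CIE rats 1 and 5, 0.62 within the CIE group (exact permutation p = 0.194) and 0.86 among the Control rats alone (exact permutation p = 0.0444).

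These 4 rats with the highest sum were also the 4 with the highest *Unc13a* and *Rab3d*, and CIE rats 1, 2 and 4 had the highest *Sv2b*. As the rats fall into separate clusters on this sum, no correlation is given. Without the 4 rats, a setting chosen after the values were seen that leaves 3 CIE and 5 Control rats, the log2 fold change was -0.03 for *Unc13a*, 0.00 for *Rims1*, -0.19 for *Stx1a*, -0.13 for *Vamp1* (unadjusted p 0.342), 0.05 for *Pclo*, 0.17 for *Rimbp2*, 0.40 for *Cplx3*, -0.15 for *Snap29* (unadjusted p 0.0864) and -0.09 for *Sv2b*, and 0 of the release list genes and 0 members had an unadjusted p below 0.05 by edgeR. The value of *Snap29* was thus the same as with all rats. With scores of the cortical and the striatal markers added as covariates in all 12 rats, the values were -0.05 for *Unc13a*, -0.03 for *Rims1*, -0.11 for *Stx1a* and -0.17 for *Snap29* (unadjusted p 0.0236), and 2 release list genes passed the unadjusted threshold.

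*Vamp1* was set beside the myelin markers. Of 10 markers of myelinating oligodendrocytes 9 were lower in the CIE group at an unadjusted p below 0.05, 0 at 5% FDR, and all 10 were negative (median log2 fold change -0.57). Their sum was 5549 to 13531 CPM in the CIE group (median 8334) and 8535 to 15967 CPM in Control rats (median 12888). CIE rat 6 had the highest sum of its group and Control rat 12 the lowest of its own, and in *Vamp1* Control rat 12 was again the lowest of its group, while CIE rats 5 and 6 shared the highest CIE level (223 CPM). With the group means removed, r of *Vamp1* with the sum was 0.60 over the 12 rats (permutation test, p = 0.0421, adjusted over 80 relations 0.177) and rho was 0.50 (permutation test, p = 0.118, adjusted 0.411), so that the relation did not pass the adjustment. The value of r was 0.63 without CIE rats 3 and 4, 0.56 within the CIE group (exact permutation p = 0.269) and 0.70 among the Control rats alone (exact permutation p = 0.113). With the 10 markers taken singly, r of *Vamp1* was between 0.49 and 0.67. With the same sum, r was -0.75 for *Syt1* (permutation test, p = 0.0156, adjusted 0.114). It was 0.67 for *Syt2* (permutation test, p = 0.0283, adjusted 0.162) and -0.64 for *Vamp2* (permutation test, p = 0.0399, adjusted 0.177). All of these lay further from 0 than the value of *Vamp1*. Of the 80 relations, 20 had an unadjusted p below 0.05 for r, and 0 passed after adjustment. With the myelin marker score as a covariate, chosen after the values were seen, the log2 fold change of *Vamp1* was -0.06 (unadjusted p 0.618, FDR 0.888 by edgeR), and that of *Syt2* was 0.67 (unadjusted p 0.0729) against 0.07 without it. As the myelin markers themselves differed between the groups, this fit cannot separate the score from the treatment. Whether myelin accounts for the difference in *Vamp1* was not tested.

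*Syt2* was set beside a list of 8 genes of parvalbumin and fast-spiking neurons. The sum of the list was 439 to 943 CPM in CIE rats and 454 to 875 CPM in Control rats, and 0 of the 8 differed at an unadjusted p below 0.05. Over the 12 rats with the group means removed, r was 0.89 (permutation test, p = 0.00139) and rho 0.99 (permutation test, p = 2e-05). Adjusted over all 80 relations of the 8 genes with 10 marker lists, the p values were 0.0608 for r and 0.00160 for rho. The value of r was 0.97 without CIE rat 2 and Control rat 10, 0.89 within the CIE group (exact permutation p = 0.0222) and 0.89 among the Control rats alone (exact permutation p = 0.0333). Taken singly, 7 of the 8 genes correlated positively with *Syt2*, from 0.33 for the potassium channel gene *Kcnc1* to 0.77 for *Pvalb*, and the interneuron factor *Lhx6* negatively at -0.55. The sodium channel subunit gene *Scn4b*, at 13.4 to 487 CPM, gave the sum much of its range, and without it r was 0.55 (permutation test, p = 0.0840) and rho 0.49 (permutation test, p = 0.124). The relation to the list therefore does not hold without this gene. The highest sums of the list were those of CIE rat 2 (943 CPM) and Control rat 10 (875 CPM). These rats also had the highest striatal marker sums (3719 and 4128 CPM). Whether the sum follows the number of fast-spiking neurons was not tested.

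**Figure D5:**
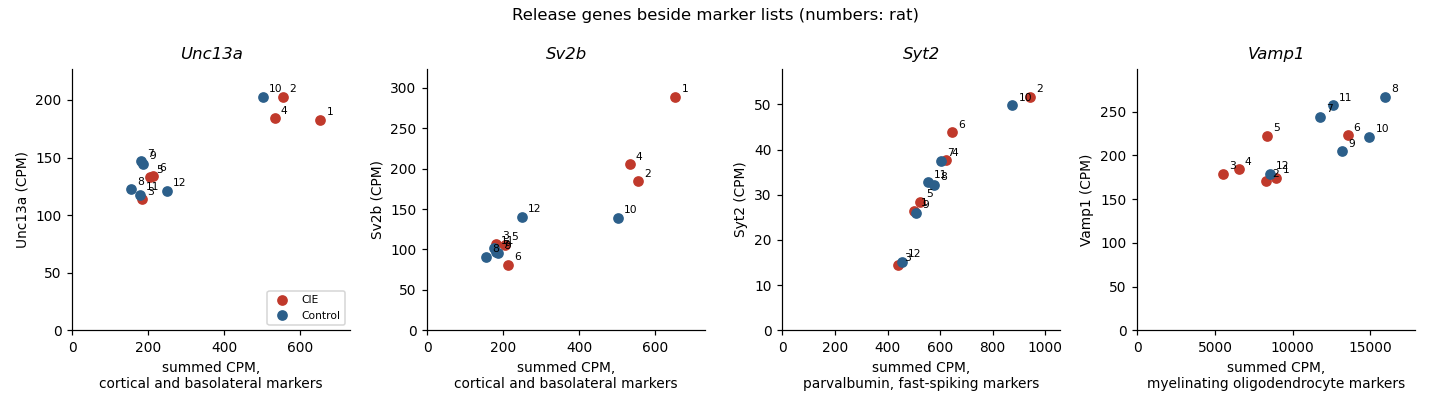
CPM of *Unc13a*, *Sv2b*, *Syt2* and *Vamp1* (y axes, from 0) against the summed CPM of a marker list (x axes, from 0) in each numbered rat, red for CIE and blue for Control. CIE rats 1, 2 and 4 and Control rat 10 stand apart on the cortical and basolateral list (501 to 653 CPM), and *Syt2* rises along the fast-spiking list, whose sum includes *Scn4b*, in both groups.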

How the data were processed

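RNA of CeA punches from 6 CIE and 6 Control rats was sequenced by the authors as poly-A enriched, paired-end libraries. The authors aligned reads to Rnor_6.0 using BWA, HTSeq then gave a total for each gene, and the deposited values are raw counts without a filter. The gene annotation, strand and overlap settings are not given in the sources used here, so reads of overlapping genes may be divided or lost. The labels also name DESeq2 1.26. A CIE library held 61978486 to 78441691 counts and a Control library 39082548 to 95647601. Between any 2 rats of a group the counts varied by at least 17.5 times the Poisson variance. Groups were taken from the treatment label, since the titles of all 12 samples carry the same suffix.

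Counts were normalized by TMM and compared with edgeR's quasi-likelihood F test (edgeR 4.0.16, limma 3.58.1 and DESeq2 1.42.0 in R 4.3.3) after filterByExpr, 2-sided and without covariates. FDR is Benjamini-Hochberg adjusted over 20944 genes. The SE is the log2 fold change over the square root of F. Paralogue ratios used counts plus 0.5 and exact permutation tests, whose smallest p for 6 against 6 rats is 0.00216, and 1 planned pair is not reported here. Correlations used log2 CPM (prior count 2) and 100000 permutations within groups (Python 3.11.15, scipy 1.17.1, numpy 2.4.6, matplotlib 3.10.9 and pandas 2.3.3). The p values of correlations and all relations to marker lists were added to the planned design. On counts simulated with 200 genes changed by 1 on the log2 scale, edgeR recovered 136 and called 5 unchanged genes at 5% FDR, and DESeq2 recovered 154 and called 36. The counts were drawn for each gene separately, with dispersions estimated by edgeR. The log2 fold changes of the members ran from -0.25 to 0.15, so these recoveries do not apply to differences of that size.

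The members and lists were chosen with earlier results of these data known. Named release genes are those at 5% FDR or a nominal p value below 0.05, or the 2 with the smallest p in roles with fewer than 2, and for each member the 3 genes of most like pattern. *Rab3gap1* of the release list did not match a symbol in the table, and *Rab3il1* did not pass the filter. Alternatives were the DESeq2 test, limma-voom with quality weights, DESeq2 size factors, scaling by library size only, omitting the filter, a minimum of 10 counts in all rats, marker scores as covariates and leaving out each rat. The myelin covariate and the omission of 4 rats were chosen after seeing the data. Gene positions in Rnor_6.0 were not used here, and RefSeq sequences are those of GRCr8.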

Additional observations from a re-analysis of the deposited data

Results flagged for a closer look

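In 50 groups of 6 values, each gene named by the rule and each ratio in each group of rats, a single rat stood apart from the other 5 in 5 cases by Dixon's criterion, which chance meets in about 1 group in 20. Control rat 10 accounted for 4 of them, with *Unc13a* at 203 CPM against 118 to 147 CPM in the other Control rats, *Rims1* at 203 CPM against 167 to 179 CPM, *Rab3d* at 18.4 CPM against 8.68 to 12.3 CPM, and *Syt13* at 158 CPM against 222 to 234 CPM. The striatal marker sum of this rat was 4128 CPM, against 286 to 950 CPM in the other Control rats. *Cplx3* in CIE rat 2 was at 7.21 CPM against 0.691 to 1.48 CPM in the other CIE rats, and the striatal marker sum of that rat was 3719 CPM.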

How the results depend on the processing

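No member passed 5% FDR under any alternative fit, and the lowest FDR of a member was 0.209, for *Snap25* under limma-voom. No paired analysis was possible because the groups share no replicate numbers. The cause of the differences below was not tested.

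The genes at 5% FDR numbered 76 in the analysis reported, 273 with DESeq2, 234 with limma-voom, 38 with the neuronal and 37 with the myelin covariate, 15 without the 4 rats with the highest cortical marker sum, and 34 to 154 with 1 rat left out. Of all 20944 genes tested, 1740 had an unadjusted p below 0.05 in the analysis reported and 3596 with limma-voom. They numbered 1834 with the cortical and striatal, 1200 with the neuronal and 2338 with the myelin covariate. Without the 4 rats they were 1172 of 21691. With 1 rat left out they numbered 1347 to 2811, and without Control rat 10 they were 2420 of 21213. Release list genes at that threshold numbered 15 with limma-voom, 2 with the cortical and striatal covariates, 2 with the neuronal covariate, 3 with the myelin covariate, 0 without the 4 rats, and 1 to 13 with 1 rat left out (13 without Control rat 10). Of these 0 were higher and 3 lower in CIE rats with the myelin covariate, among them *Rab3a* (-0.23, unadjusted p 0.0325) and *Ap2m1* (-0.20, unadjusted p 0.0297), against 3 higher and 1 lower in the analysis reported.

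The log2 fold change of *Vamp1* was -0.24 (unadjusted p 0.0328) with DESeq2 and -0.26 (unadjusted p 0.0269) with limma-voom. By edgeR its unadjusted p was 0.0383 with DESeq2 size factors, 0.0263 without the filter and 0.0334 with at least 10 counts in every rat. The log2 fold change was -0.23 (unadjusted p 0.0547) with library size only. It was -0.17 with the cortical and striatal, -0.20 with the neuronal and -0.061 with the myelin covariate. Without the 4 rats it was -0.13, and with 1 rat left out it ran from -0.31 to -0.19. *Snap25* was at 0.13 (unadjusted p 0.0200) with limma-voom, 0.15 (unadjusted p 0.0354) with the neuronal covariate and 0.068 to 0.13 with 1 rat left out, and *Unc13a* at 0.31 (unadjusted p 0.0309) with limma-voom. *Syt2* was at 0.67 (unadjusted p 0.0729) with the myelin covariate. Signs turned with the cortical and striatal covariates for *Stx1a* (-0.11), *Syt2* (-0.087), *Unc13a* (-0.050) and *Rims1* (-0.035), with the myelin covariate for *Stx1a* (-0.070) and *Syt1* (-0.062), and without the 4 rats for *Stx1a* (-0.19), *Syt1* (-0.032), *Unc13a* (-0.025) and *Sv2b* (-0.089). With 1 rat left out, *Stx1a* ranged from -0.054 to 0.11, *Syt2* from -0.10 to 0.23, *Unc13a* from 0.069 to 0.28, *Sv2b* from 0.30 to 0.69 and *Rims1* from 0.063 to 0.18. The log2 ratio difference ranged from -0.24 to 0.21 for *Syt2* to *Syt1*, from -0.29 to -0.16 for *Vamp1* to *Vamp2* and from -0.017 to 0.15 for *Snap25* to *Snap23*, whose difference of medians was -0.017.

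With library size only, 60.3% of the genes at an unadjusted p below 0.05 were higher in CIE rats, against 48.1% with TMM, and the median log2 fold change of all genes was 0.02. DESeq2 gave no p for *Cplx3*. The 95% interval was widest for *Syt2*.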
